A study of Mus musculus with 69 samples.

Results

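The matricellular and elastic fibre genes described here are Spp1, Tnc, Fn1, Thbs1, Postn, Eln, Lox, Loxl1, Loxl2 and Tgfb1. They were taken by name, as the array probes whose transcript accession maps to one of these RefSeq symbols. A probe was found for 9 of the 10 genes, out of 18656 genes tested on the arrays, and Lox was not analysed here. Elastin (Eln) gave the one result that passed the test for any of the 9 genes. At 28 days after 162 µg of NRCWE-030, its log2 ratio to the reference was 1.52 ± 0.08 (SD, n = 5 mice) against 2.16 ± 0.14 (n = 5) in vehicle lungs, a fall of 0.64 on the log2 scale, and this call was lost in 9 of 13 other ways of processing the same arrays. Osteopontin (Spp1) had the largest difference in size of the 9 genes in that comparison, 1.87 log2 units above vehicle, but its 5 mice ran from -4.25 to -1.71 and the difference did not pass the test.

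The lungs came from female C57BL/6 mice that were 5 to 7 weeks old on arrival and had 1 to 3 weeks to acclimatise. The mice were instilled once through the trachea with 1 of 2 titanium dioxide nanoparticles, named NRCWE-025 and NRCWE-030. The doses were 18, 54 and 162 µg, and control mice had the vehicle alone, water with 2% serum. Whole lungs were taken on day 1 or day 28, and RNA came from a small frozen piece of each lung. There were 69 arrays in 14 groups, 5 mice in each group except 162 µg of NRCWE-025 on day 28, which had 4. The 5 vehicle mice of each day served as the controls of both materials, so that differences of the 2 materials from vehicle on 1 day share their control arrays. Each array compared the lung of 1 mouse, labelled with Cy5, with a commercial pool of mouse RNA, labelled with Cy3, and no dyes were swapped. All values are log2 ratios of lung over that reference, so a level says how much of a transcript the lung held relative to the pool, and levels of different genes cannot be set against each other.

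Matricellular proteins are secreted into the matrix without building its framework. They bind integrins, growth factors and proteases, and their genes are known to be low in most healthy adult tissue and to be switched on in wounds, inflammation and fibrosis. Elastic fibres are the recoil element of alveolar walls, airways and vessels: elastin, secreted as tropoelastin, is laid on a microfibril scaffold and crosslinked by lysyl oxidases, mostly in late lung development and early life. Transforming growth factor beta 1 (Tgfb1) is a major regulator of both groups, and it is controlled largely by release from a latent complex, which a measure of its RNA cannot see.

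Of the 9 genes, 4 had an entry in the table of RefSeq promoters, Spp1, Tnc, Postn and Tgfb1, with 7 start sites between them. The promoter of Spp1 is shown because Spp1 was the most variable of the genes. It covers the 250 bases before the first of its 2 listed starts, chr5:104434861-104435110 on the plus strand of GRCm38.p6, written 5′ to 3′. Capitals mark matches, on either strand, to the letters of a TATA box (TATAAA), the core bound by RUNX factors (ACCACA) and the SMAD box (CAGAC, here read on the opposite strand).
Spp1: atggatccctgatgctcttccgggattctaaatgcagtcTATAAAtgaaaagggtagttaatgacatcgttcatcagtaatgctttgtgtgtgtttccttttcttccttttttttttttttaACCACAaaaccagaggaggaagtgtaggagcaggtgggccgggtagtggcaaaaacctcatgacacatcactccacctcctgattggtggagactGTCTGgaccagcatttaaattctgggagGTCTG
The SMAD box matches lie 33 and 5 bases before the start, the RUNX core 128 bases and the TATA box 211 bases before it. Among 32851 mouse promoters of the same length, 42.2% held CAGAC, 14% held ACCACA and 12.4% held TATAAA. The letters of an AP-1 site, TGANTCA, are not in this window and were found in 6.75% of promoters. Matches of this kind describe the sequence and say nothing about binding in these lungs.

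The lung samples carried the RNA of lung: 10 markers of alveolar and airway epithelium were well above background on all 69 arrays, with a mean log2 ratio between 4.32 and 5.54 on single arrays. Between 49.1% and 72.8% of spots were well above background in Cy5, and none was saturated. In a sample of whole tissue, fewer cells of a type and less RNA per cell cannot be told apart. Differences were tested with limma's moderated statistics for each material and day, with p-values adjusted by the Benjamini-Hochberg method over all 18656 genes, and a gene was called at an adjusted p under 0.05.

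Across all doses of NRCWE-030 on day 28, Eln was the 1 gene of 9 called by the F-test for dose, where 0.102% of all genes were called. At 162 µg it was again the 1 called gene of 9, against 0.0965% of all genes. At this dose 6 of the 9 genes lay below vehicle and 3 above, with a median difference of -0.17, while the median of all genes was -0.002. For the other material and for day 1 the F-test for dose called 0 of 9 genes, against 0.0268% of all genes for NRCWE-025 on day 28, 0.954% for NRCWE-030 on day 1 and 0.0214% for NRCWE-025 on day 1. At an unadjusted p under 0.05, the F-test picked out 4 of the 9 genes for NRCWE-030 on day 28, 2 for NRCWE-025 on day 28, 2 for NRCWE-030 on day 1 and 1 for NRCWE-025 on day 1, where 7.06%, 5.77%, 11.2% and 9.98% of all genes reached that level.

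The single dose tests called none of the 9 at 18 or 54 µg, where the share called among all genes was 0.118% at 18 µg and 0.0536% at 54 µg of NRCWE-030 on day 28, 0.059% and 0.0268% for NRCWE-025 on day 28, 0.00536% and 0.0804% for NRCWE-030 on day 1, and 0% for both doses of NRCWE-025 on day 1. At an unadjusted p under 0.05, the 18 µg tests picked out 2 of the 9 genes for each material on day 28, 1 for NRCWE-030 on day 1 and 0 for NRCWE-025 on day 1, where the shares of all genes were 9.03% for NRCWE-030 and 8.89% for NRCWE-025 on day 28, and 7.3% and 5.12% on day 1. At that level the 54 µg tests picked out 6 of the 9 genes for NRCWE-030 on day 28, 1 for NRCWE-025 on day 28, 3 for NRCWE-030 on day 1 and 1 for NRCWE-025 on day 1, against 6.52%, 7.07%, 8.76% and 6.53% of all genes. At 162 µg none of the 9 was called for NRCWE-025 on day 28, for NRCWE-030 on day 1 or for NRCWE-025 on day 1, where the share of all genes called was 0.0161%, 1.69% and 0.209%, and 3, 2 and 1 of the 9 had an unadjusted p under 0.05, as did 7.24%, 12.9% and 12.3% of all genes. For NRCWE-030 on day 28 at this dose, 4 of the 9 did, and 7.51% of all genes.

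**Figure D1:**
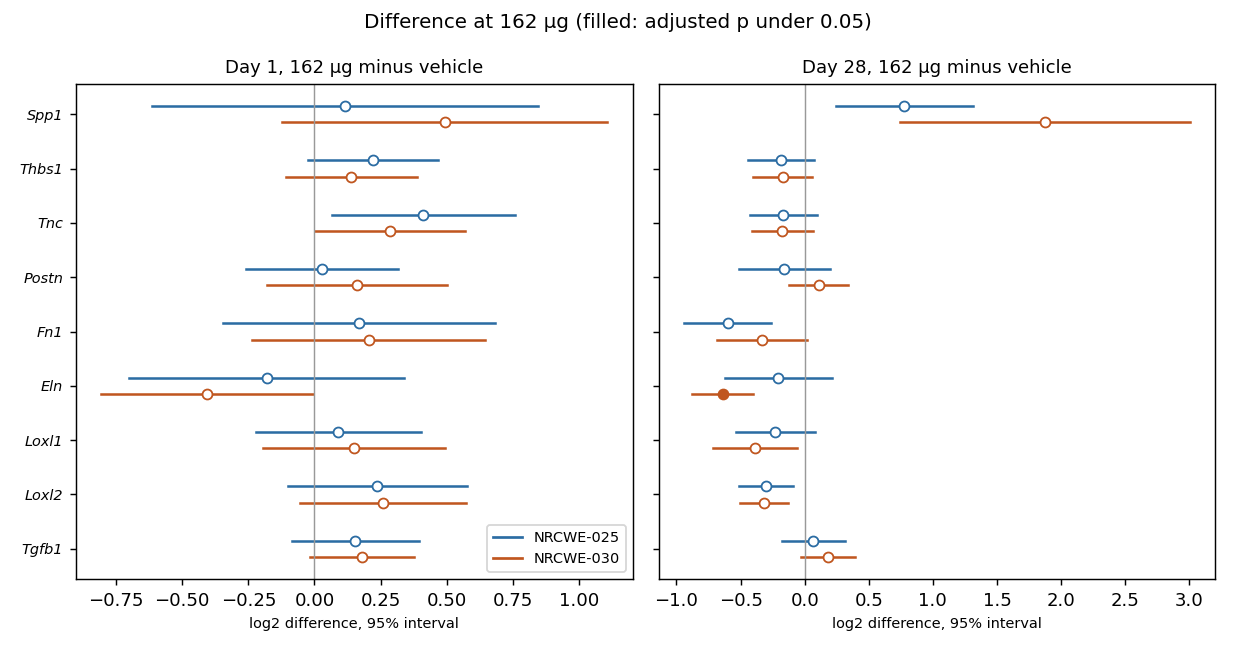
Difference of each gene at 162 µg from the vehicle group of the same day, in log2 units, with its 95% confidence interval; NRCWE-025 is blue, NRCWE-030 orange, day 1 left and day 28 right, and a filled point has an adjusted p under 0.05. The one filled point is Eln for NRCWE-030 on day 28 at -0.64, and the widest interval of that day is that of Spp1, from 0.74 to 3.01.

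Elastin is the core protein of the elastic fibre. It was measured by 1 probe, well above background in the lung channel on all 69 arrays and in the reference channel on 68. The reference channel was dim for this probe. Its median signal before background correction was 97 there and 338 in the lung channel, while the weaker probe of Tnc read 76 in the reference. In vehicle lungs of day 28 the log2 ratios were 2.13, 2.22, 2.27, 1.93 and 2.26. After 18 µg of NRCWE-030 they were 1.81, 2.02, 1.61, 1.89 and 1.86. After 54 µg they were 1.89, 1.10, 1.57, 1.75 and 1.53. At 162 µg the 5 mice read 1.44, 1.61, 1.55, 1.44 and 1.56. All 5 mice at 162 µg and all 5 at 54 µg lay below the lowest vehicle mouse, and at 18 µg 4 of 5 did. Among all genes, 2.11% had groups that did not overlap at 162 µg of NRCWE-030 on day 28, and 1.59% at 54 µg. The differences from vehicle were -0.32 (SE 0.11) at 18 µg, -0.59 (SE 0.11) at 54 µg and -0.64 (SE 0.11) at 162 µg, with adjusted p-values of 0.342, 0.0573 and 0.0203. The fall at 162 µg is 1.56-fold, with a 95% interval of -0.88 to -0.40 in log2 units. The adjusted p of the F-test over doses was 0.0469.

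The size of this fall was steadier than its call. It lay between -0.70 and -0.61 when each of the 20 arrays was left out in turn, and between -0.85 and -0.59 under the 13 other ways of processing the arrays. Some of these could not move it. Arrays at 18 or 54 µg do not enter this difference. The ordinary test, other samples in the fit, a scaling of average intensities only, the choice of the brightest probe and the dim-probe filter all left it at -0.64. The call at 162 µg was lost without vehicle replicate 1, 2, 3 or 5, or without 162 µg replicate 1, 4 or 5, with an adjusted p of up to 0.0915, and it was lost in 9 of the 13 other ways of processing, with an adjusted p of up to 0.766. It held with the intensity scaling, the brightest probe and the filter, which leave the Eln ratios unchanged, and with the slide as a random block. The call across doses held in 6 of the 20 fits that left out an array. It was lost, with an adjusted p of up to 0.182, without vehicle replicate 1, 2, 3 or 5, without 18 µg replicate 1, 2 or 4, without 54 µg replicate 3 or 5, or without any of the 5 arrays at 162 µg. Of the 18456 genes left unchanged in data simulated for this comparison, 0.0596% were called, and of 100 genes changed by 0.6 log2 units 76% were recovered. The pooled SD of Eln within groups, 0.33 log2 units, was larger than that of 90.9% of genes. Recovery was not tested separately for genes with a spread like that of Eln.

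Arrays were hybridised 4 to a slide, and 3 slides held a vehicle array and all 3 doses of NRCWE-030 of day 28. On these slides Eln at 162 µg differed from the vehicle array of its own slide by -0.69, -0.66 and -0.70 log2 units. At 54 µg the differences within a slide were -0.24, -1.16 and -0.69, and at 18 µg they were -0.32, -0.25 and -0.65. All 9 were below 0. With the slide as a fixed term in the fit the difference at 162 µg was -0.73 with an adjusted p of 0.0891, and with the slide as a random block it was -0.67 with an adjusted p of 0.0115.

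**Figure D2:**
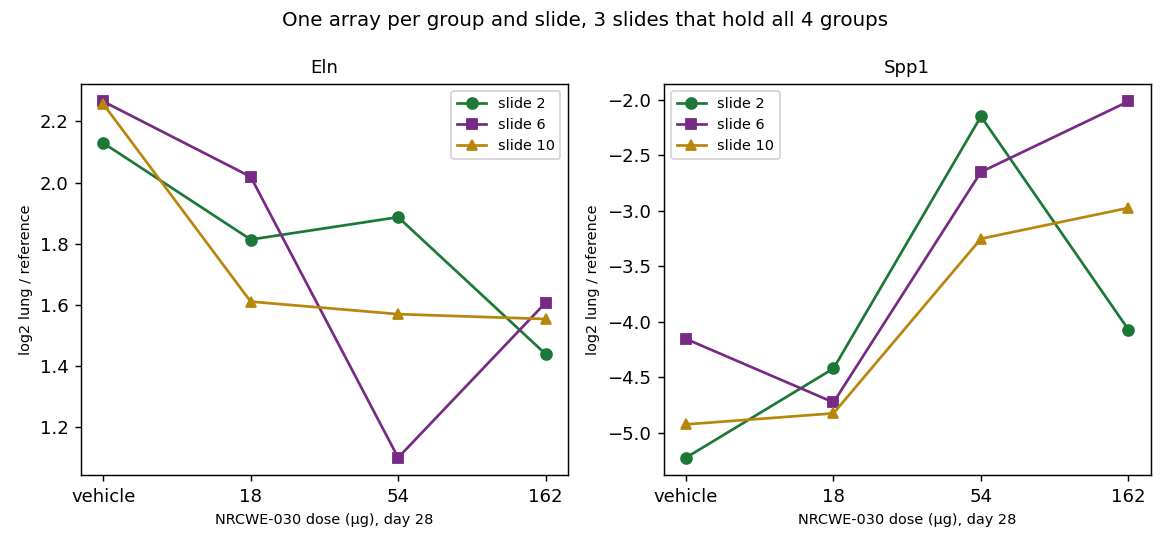
Log2 ratio of lung over reference for Eln (left) and Spp1 (right) on the 3 slides that held all 4 groups of NRCWE-030 on day 28; the horizontal axis is the dose in µg and each line joins the 4 arrays of 1 slide. Eln at 162 µg lies 0.66 to 0.70 log2 units below the vehicle array of its slide, and Spp1 at 54 and 162 µg lies above it on each of these 3 slides. The 54 µg mice with the lowest Spp1, down to -5.28, were on slides without a vehicle array and are not shown.

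On day 1 Eln had the same direction after NRCWE-030 but was not called. Vehicle lungs of day 1 read 1.72, 1.95, 1.72, 2.59 and 2.11. After 18 µg of NRCWE-030 the ratios were 1.22, 1.94, 0.99, 1.93 and 1.73, after 54 µg 1.33, 1.41, 1.79, 1.48 and 1.32, and after 162 µg 1.69, 1.60, 1.20, 1.88 and 1.70. The groups overlapped at every dose, and 4 of 5 mice at 54 µg and 4 of 5 at 162 µg lay below the lowest vehicle mouse. The differences were -0.46, -0.55 and -0.41, with adjusted p-values of 0.631, 0.335 and 0.377. All 7 NRCWE-030 arrays of day 1 that shared a slide with a vehicle array lay below it, by -1.37 to -0.63 log2 units. With the slide as a fixed term, all 3 doses of NRCWE-030 were called on day 1 (differences of -1.02, -0.92 and -0.89 with adjusted p-values of 0.0361, 0.0116 and 0.0184). The vehicle arrays that shared a slide with NRCWE-030 on day 1 were those at 1.95, 2.59 and 2.11. Those at 1.72 and 1.72 shared none, so the within-slide differences and the slide term drew nothing from them. On the slides of those at 1.72, Eln at 162 µg of NRCWE-025 lay 0.91 and 0.47 log2 units above vehicle.

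After NRCWE-025, Eln was not called at any dose. On day 28 the 162 µg mice read 1.76, 2.14, 2.05 and 1.88, the 54 µg mice 1.56, 2.09, 1.83, 2.51 and 1.14, and the 18 µg mice 2.34, 1.90, 1.70, 1.67 and 2.03. The differences from vehicle were -0.23 at 18 µg, -0.33 at 54 µg and -0.20 at 162 µg, and each group overlapped the vehicle mice. On day 1 the differences were 0.21, -0.34 and -0.18, and at 162 µg single mice ran from 1.34 to 2.63. Set against each other at 162 µg on day 28, NRCWE-030 was 0.44 log2 units lower in Eln than NRCWE-025 (difference -0.44, 95% interval -0.87 to 0.0012, adjusted p = 1). On day 1 that difference was -0.23 (95% interval -0.64 to 0.19). Ordered by group mean, the 5 lowest of the 14 groups were NRCWE-030 groups, from 1.47 ± 0.19 at 54 µg on day 1 to 1.61 ± 0.25 at 162 µg on day 1, and the highest was 18 µg of NRCWE-025 on day 1 at 2.23 ± 0.29. Neighbouring groups in that order did not differ beyond their spread.

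**Figure D3:**
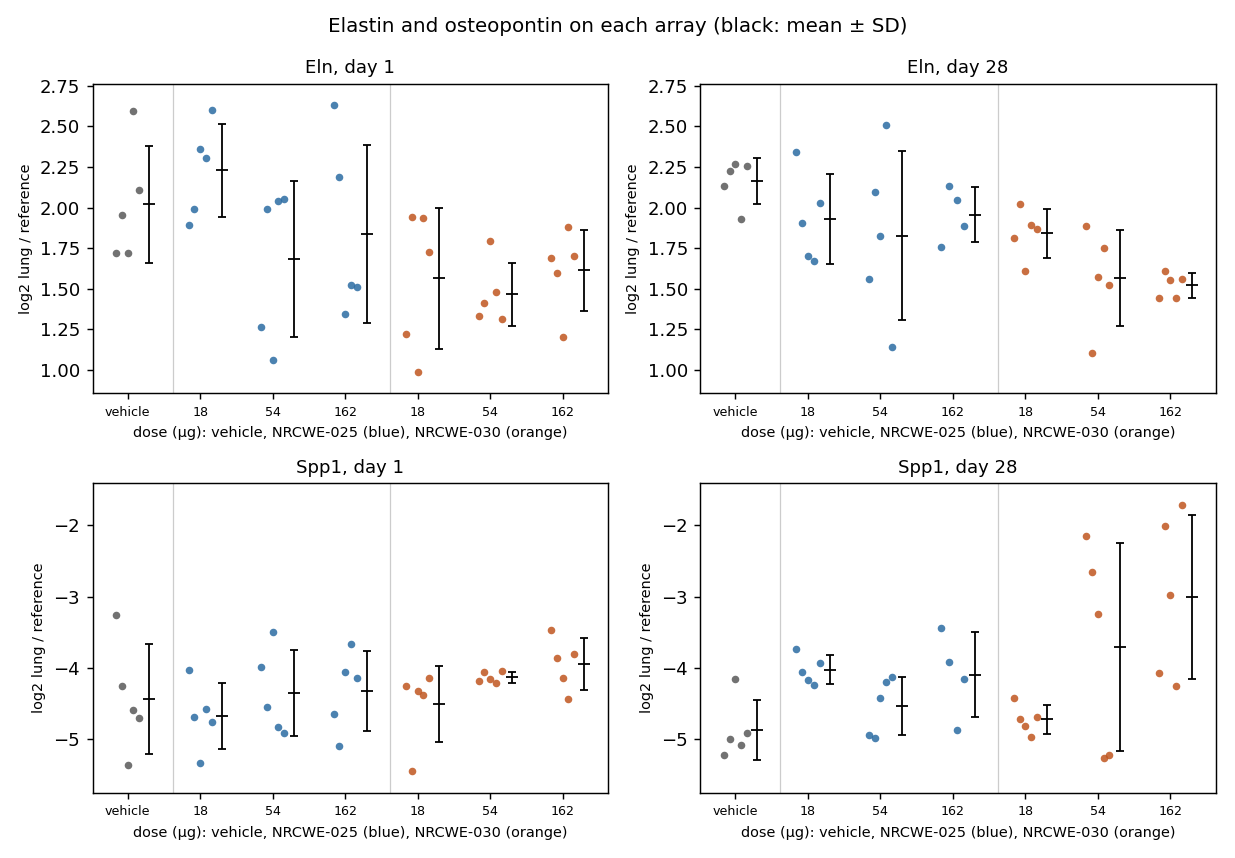
Log2 ratio of lung over reference of Eln (top) and Spp1 (bottom) on each array, by dose in µg, with vehicle in grey, NRCWE-025 in blue and NRCWE-030 in orange, day 1 left and day 28 right; black marks are the mean ± SD of the 4 or 5 mice. On day 28 the Eln values at 54 and 162 µg of NRCWE-030 all lie below the vehicle mice, and the Spp1 values of the same groups spread from -5.28 to -1.71.

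The array genes whose pattern was most like that of Eln over the 69 arrays were Mfap5, a microfibril-associated protein, with Pearson's r of 0.612, Tgfb3, another transforming growth factor beta, with 0.598, and Fgf10, a growth factor of lung mesenchyme, with 0.586. After the group means were removed the same correlations were 0.68, 0.573 and 0.523. All of these points share the reference pool and the scanner, and the arrays of a group share their treatment. At 162 µg of NRCWE-030 on day 28 Mfap5, Tgfb3 and Fgf10 differed from vehicle by -0.11, -0.12 and -0.21. None was called, with adjusted p-values of 0.919, 0.9 and 0.58. Mesenchymal markers, the genes of fibroblasts and smooth muscle that make elastin, moved in the same direction as Eln. At 162 µg of NRCWE-030 on day 28, 11 of the 12 markers lay below vehicle, none was called, and their median difference was -0.30. Their summed level, given as the mean over the 12 genes, ran from 0.38 to 0.83 in these 5 mice and from 0.61 to 1.06 in vehicle mice. At 18 and 54 µg of NRCWE-030 on day 28 all 12 lay below vehicle, with medians of -0.34 and -0.19. After NRCWE-025 on day 28, 9, 7 and 11 of the 12 did at 18, 54 and 162 µg, with medians of -0.17, -0.03 and -0.17. At each dose these medians lay further below vehicle for NRCWE-030 than for NRCWE-025, and for neither material did they fall steadily with dose. Vehicle mice of day 28 had the highest mean level of the 14 groups, 0.83. At 162 µg of NRCWE-030 on day 28 the 4 mesothelial markers also lay below vehicle, none called, with means of -1.41 to 0.09 against -0.08 to 0.04. Of 8 neutrophil markers 7 lay below vehicle at this dose, with 1 called, Mmp9 at -1.11. In every treated group of day 28, of either material, 7 or 8 of them lay below vehicle. The mean level of this list was 2.30 ± 0.44 in vehicle mice of day 28 and 1.91 ± 0.15 in those of day 1. In the treated groups of day 28 it lay between 1.72 and 2.00. The part of these markers in the Eln result was not tested.

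The crosslinking enzymes Loxl1 and Loxl2, which oxidise lysines of elastin and collagen, lay below vehicle in every day 28 group and were not called. Loxl1 was measured by 1 probe. Its differences after NRCWE-030 on day 28 were -0.27, -0.39 and -0.39 at 18, 54 and 162 µg, with an adjusted p of 0.574 at the highest dose. The vehicle mice read 0.19, 0.36, -0.13, 0.11 and 0.49, and the 162 µg mice -0.30, -0.36, 0.11, -0.44 and 0.08. 3 of the 5 treated mice lay below the lowest vehicle mouse. After NRCWE-025 the differences were -0.25, -0.33 and -0.23.

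Loxl2 was measured by 2 probes with r of 0.516 between them over the 69 arrays. In vehicle lungs of day 28 it read -0.55, -0.53, -0.72, -0.67 and -0.89. At 162 µg of NRCWE-030 it read -0.81, -0.80, -1.15, -1.13 and -1.06, and at 162 µg of NRCWE-025 -0.91, -1.23, -0.87 and -0.89. In both groups 3 mice lay below the lowest vehicle mouse. The differences were -0.32 (SE 0.09, adjusted p = 0.29) and -0.30 (SE 0.10, adjusted p = 0.513). The dimmer probe gave -0.46 and the brighter one -0.18 for NRCWE-030. On day 1 the 162 µg groups lay on the other side of vehicle, with differences of 0.26 for NRCWE-030 and 0.24 for NRCWE-025. The difference at 162 µg thus stood higher on day 1 than on day 28 by 0.58 log2 units for NRCWE-030 and 0.54 for NRCWE-025, with adjusted p-values of 0.292 and 0.288.

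Over the 69 arrays Eln and Loxl1 had r of 0.518, Loxl1 and Loxl2 had 0.495, and Eln and Loxl2 had 0.161. Within groups these were 0.517, 0.346 and 0.272.

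Spp1 encodes osteopontin, a secreted phosphoprotein that binds integrins and CD44 and is made by activated macrophages. It was measured by 1 probe spotted 10 times, well above background on every array, and it was far below the reference in all lungs. Its pooled SD within groups, 0.66 log2 units, was larger than that of 99.3% of genes. On day 28 vehicle mice read -5.22, -5.00, -4.15, -5.08 and -4.92. At 18 µg of NRCWE-030 the mice read -4.42, -4.73, -4.83, -4.97 and -4.69, which is within the range of the vehicle mice. At 54 µg they read -2.15, -2.65, -3.25, -5.28 and -5.23. At 162 µg they read -4.07, -2.01, -2.97, -4.25 and -1.71. The mice of the 54 µg group fell into 3 above every vehicle mouse and 2 just below the lowest one, and at 162 µg 4 of 5 lay above the highest vehicle mouse. The difference from vehicle was 0.15 at 18 µg, 1.17 at 54 µg and 1.87 at 162 µg (SE 0.54, 3.67-fold). The adjusted p was 0.973, 0.761 and 0.311, and that of the F-test was 0.417. Within the 3 slides that held all 4 groups, Spp1 was above the vehicle array by 1.15 to 2.14 log2 units at 162 µg and by 1.51 to 3.08 at 54 µg, and differed by -0.57 to 0.80 at 18 µg. The 54 µg arrays on these slides were those of the 3 high mice. The 2 low mice, at -5.28 and -5.23, were on slides with no vehicle array and are not in this range. High and low Spp1 at 54 µg thus cannot be told apart from the slides. Leaving out each array in turn moved the 162 µg difference between 1.55 and 2.19, with an adjusted p of at least 0.216. When all 14 groups were fitted together, which gives every gene 1 spread for the whole series, the difference at 162 µg passed the test with an adjusted p of 0.0216 and Eln no longer did, at 0.322.

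After NRCWE-025, the day 28 levels of Spp1 were -3.74, -4.06, -4.17, -4.24 and -3.94 at 18 µg, -4.95, -4.98, -4.42, -4.21 and -4.14 at 54 µg, and -3.44, -3.92, -4.88 and -4.16 at 162 µg. The differences were 0.85, 0.34 and 0.78, with adjusted p-values of 0.26, 0.791 and 0.499, and did not follow the dose. At 162 µg on day 28 NRCWE-030 was 1.10 log2 units above NRCWE-025 (95% interval 0.23 to 1.96, adjusted p = 1). On day 1 vehicle mice were already spread from -5.37 to -3.26. The 162 µg groups differed from them by 0.49 for NRCWE-030 and 0.11 for NRCWE-025. The difference at 162 µg of NRCWE-030 was lower on day 1 than on day 28 by 1.38 log2 units (difference -1.38, 95% interval -2.54 to -0.23, adjusted p = 0.503). By group mean, the order ran from -4.88 ± 0.42 in vehicle lungs of day 28 to -3.71 ± 1.46 at 54 µg and -3.00 ± 1.16 at 162 µg of NRCWE-030 on day 28, and neighbouring groups did not differ beyond their spread.

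Genes most like Spp1 were looked up after its values had been seen. Trem2, a receptor of lipid-handling macrophages, had r of 0.741 with Spp1 over the 69 arrays, Gpnmb, a glycoprotein of macrophage lysosomes, had 0.733, and Irf7, a regulator of type I interferon genes, had 0.729. After the group means were removed these were 0.658, 0.684 and 0.662. Trem2 in vehicle mice of day 28 read -2.06, -1.95, -2.28, -2.03 and -2.10. In the 54 µg group of NRCWE-030 it read 0.14, -0.03, -0.74, -1.93 and -1.62, and in the 162 µg group -1.22, 0.23, -0.55, -2.10 and 0.67. The 3 mice of the 54 µg group with high Spp1 were the 3 with the highest Trem2 in it, and likewise for the 3 highest mice of the 162 µg group. Trem2 was picked for its likeness to Spp1 on these same arrays, so this match is no separate evidence. Gpnmb gave the same mice in both groups, and Irf7 did at 162 µg. At 54 µg Irf7 read -1.44 in 1 of the mice with high Spp1 and -1.21 in 1 with low Spp1. Of 9 macrophage markers, 8 lay above vehicle at 162 µg of NRCWE-030 on day 28, none was called, and the median difference was 0.35. Their mean level ran from 2.67 to 2.94 in these mice and from 2.30 to 2.73 in vehicle mice. Their part in the Spp1 values was not tested.

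Tnc encodes tenascin-C, a large matricellular glycoprotein of wounds and of developing airways and vessels. Of its 2 probes, one was well above background in the lung channel on 67 arrays and the other on 2, so their median is damped by a probe that carried little signal, and r between them was 0.305. On day 1 vehicle mice read -0.55, -1.13, -1.21, -1.24 and -1.04. At 162 µg of NRCWE-025 the mice read -0.55, -1.02, -0.76, -0.51 and -0.29, and at 162 µg of NRCWE-030 -0.70, -0.60, -0.86, -0.95 and -0.65. The differences were 0.41 (adjusted p = 0.302) and 0.28 (adjusted p = 0.386), and both groups overlapped the vehicle mice because the first vehicle mouse read as high as treated mice. The brighter probe alone gave 0.76 and 0.66, with adjusted p-values of 0.299 and 0.16. On day 28 all 6 differences were below 0, between -0.18 and -0.04. The difference at 162 µg was higher on day 1 than on day 28 by 0.58 for NRCWE-025 and by 0.46 for NRCWE-030, with adjusted p-values of 0.266 and 0.532.

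Fn1 encodes fibronectin, the adhesive glycoprotein on which early matrix is assembled. It was measured by 3 probes. On day 28 vehicle mice read -2.63, -2.82, -2.93, -2.31 and -2.09. The 4 mice at 162 µg of NRCWE-025 read -3.30, -3.21, -2.98 and -3.12, and all lay below the lowest vehicle mouse. Groups that did not overlap were found for 2.29% of all genes in this comparison. The difference was -0.60 (SE 0.16), which is 1.52-fold, with an adjusted p of 0.38. The 3 probes did not move by the same amount and gave -0.69, -0.47 and -0.08, the last from the dimmest of them. After NRCWE-030 the day 28 differences were -0.34, -0.39 and -0.33 from the lowest to the highest dose, each with overlap. On day 1 the 162 µg groups differed from vehicle by 0.17 for NRCWE-025 and 0.20 for NRCWE-030. Tnc and Fn1 had r of 0.676 over the 69 arrays and 0.663 within groups, the highest of the 36 pairs of the 9 genes.

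Thbs1 encodes thrombospondin-1, a platelet and matrix protein known for activating latent transforming growth factor beta. Its 3 probes were well above background on 66, 50 and 69 arrays, and r between them ran from 0.349 to 0.711. On day 1 vehicle mice read -0.24, -0.42, -0.38, -0.49 and -0.34. At 54 µg of NRCWE-030 the mice read -0.12, 0.44, -0.25, 0.21 and -0.10, and 4 of 5 lay above the highest vehicle mouse. At 54 µg of NRCWE-025 they read -0.36, -0.53, -0.17, -0.63 and -0.37. The difference from vehicle was 0.41 for NRCWE-030 (adjusted p = 0.207) and -0.04 for NRCWE-025 (adjusted p = 0.985). The direct difference between the materials at this dose was 0.45 (95% interval 0.21 to 0.68, adjusted p = 0.241). At 162 µg the differences from vehicle were 0.14 and 0.22. On day 28, 54 µg of NRCWE-030 lay on the other side: its mice read -0.48, -0.65, -0.68, -0.38 and -0.53 and vehicle mice 0.08, 0.09, -0.35, -0.51 and -0.24, a difference of -0.36 with an adjusted p of 0.445.

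Postn encodes periostin, a matricellular protein that organises collagen and is known as a product of mesenchymal cells under interleukin-13 and transforming growth factor beta. It was measured by 1 probe. On day 1 the vehicle mice stood close together, at 3.33, 3.17, 3.37, 3.41 and 3.27. All mice at 54 µg lay above them: NRCWE-025 gave 3.61, 3.58, 3.74, 4.01 and 3.58, and NRCWE-030 gave 3.49, 3.87, 3.97, 3.82 and 3.44. Both materials were set against the same 5 vehicle arrays. The differences were 0.39 (adjusted p = 0.6) and 0.41 (adjusted p = 0.448), and 1.15% and 1.99% of all genes had groups that did not overlap in these comparisons. At 162 µg the differences were 0.03 and 0.16, with overlap, so the dose order was not kept. The vehicle mice of day 28, at 3.85, 3.59, 3.54, 3.43 and 3.80, also lay above all vehicle mice of day 1, by 0.33 (adjusted p = 0.552), where 1.89% of all genes did not overlap. No day 28 group was called, and the differences ran from -0.31 to 0.11.

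Tgfb1, the growth factor itself, was measured by 1 probe spotted 10 times. Its log2 ratio stayed between -0.34 and 0.44 on all 69 arrays, and its pooled SD within groups was 0.17. Its largest difference from vehicle was 0.18, at 162 µg of NRCWE-030 on day 28 (95% interval -0.03 to 0.39, adjusted p = 0.714), where the mice read 0.00, 0.37, -0.04, 0.25 and 0.44 and vehicle mice -0.05, 0.09, 0.11, 0.10 and -0.12. 3 of the 5 treated mice lay above the highest vehicle mouse. None of its differences had an unadjusted p under 0.05.

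**Figure D4:**
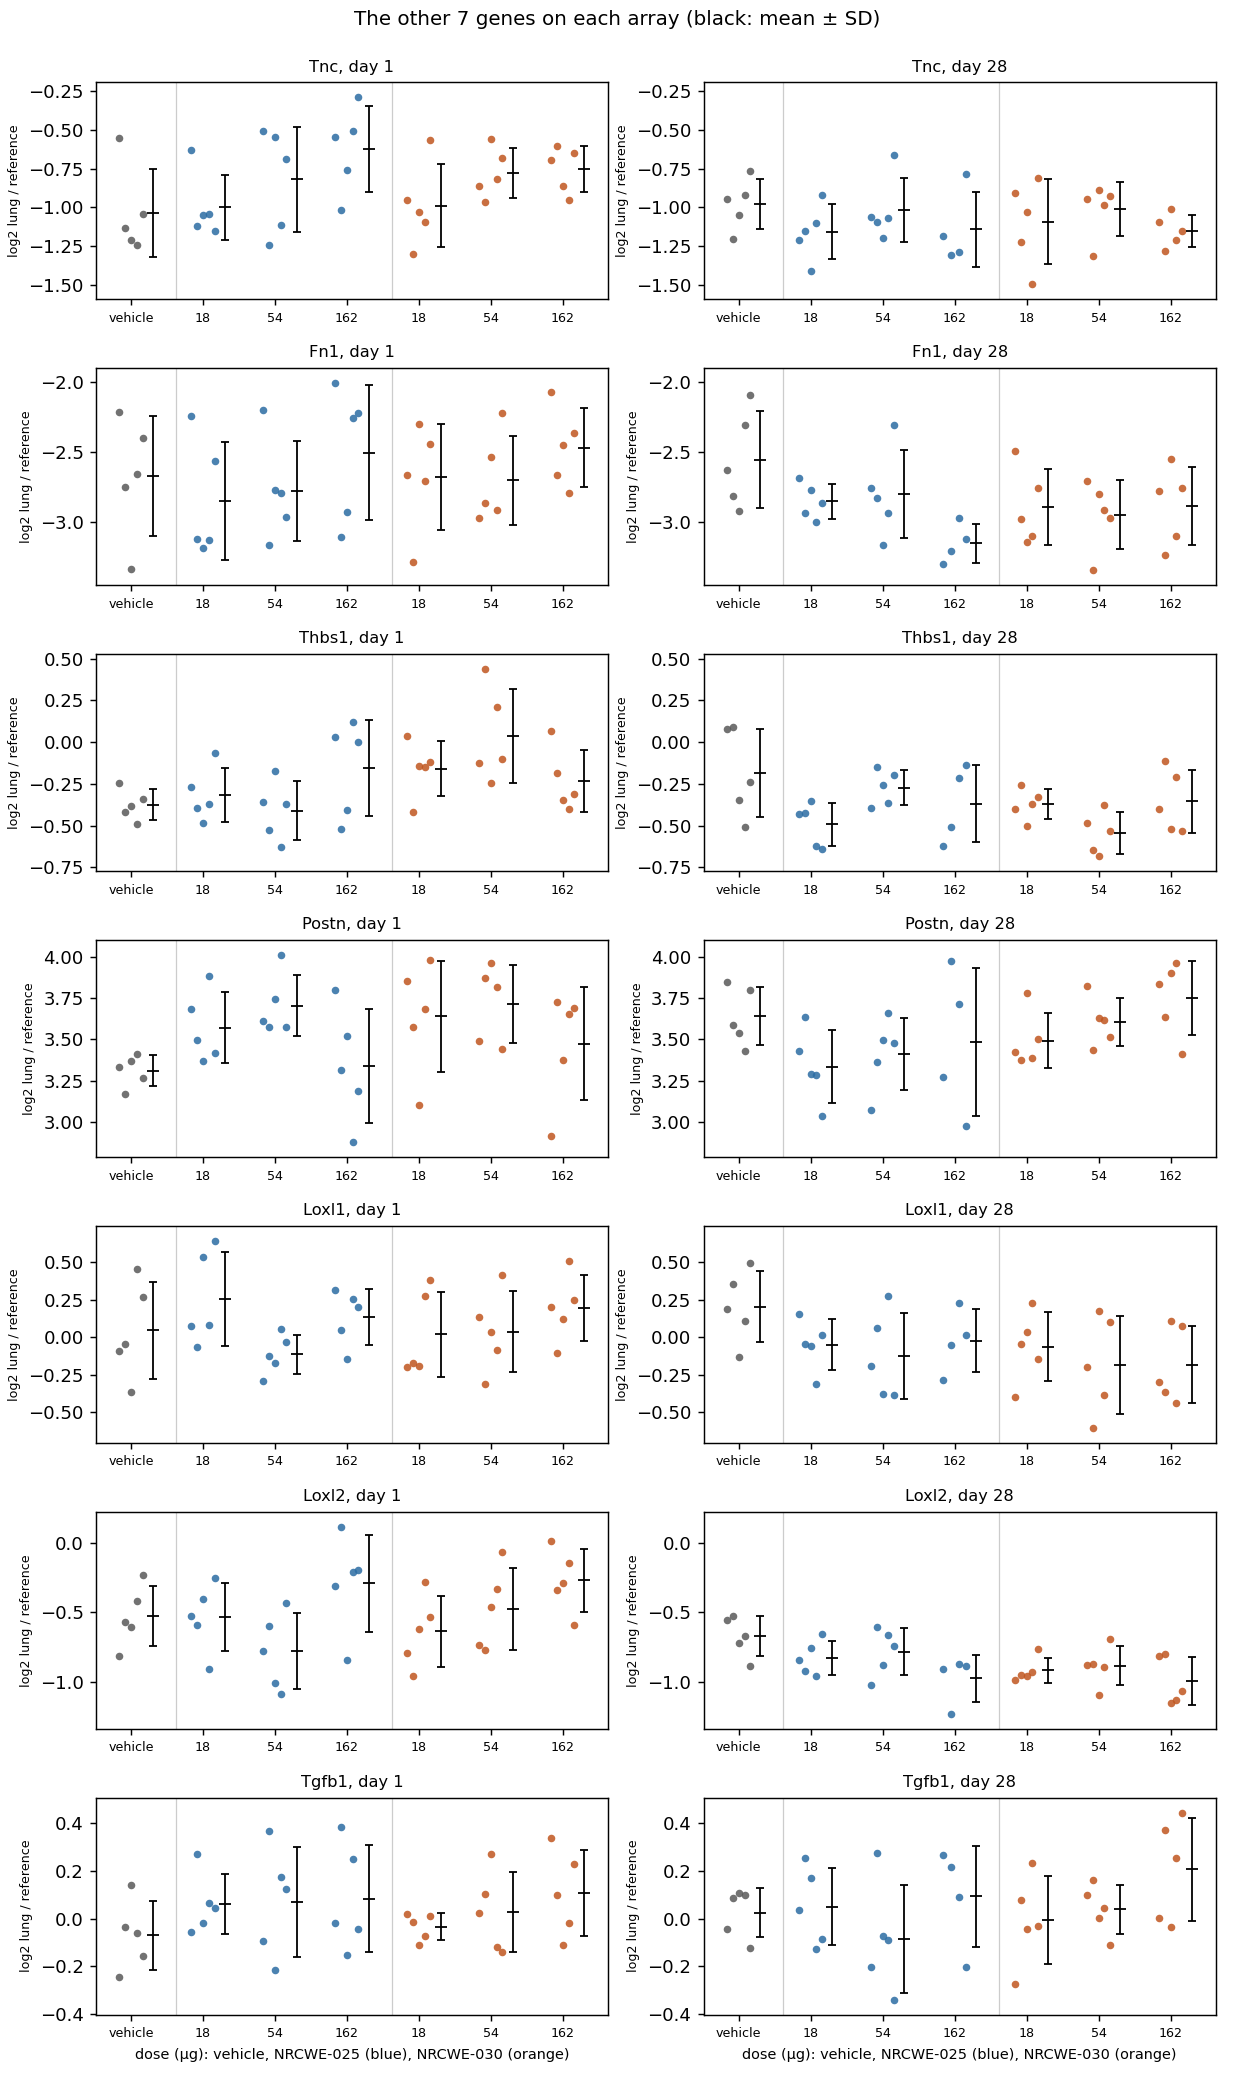
Log2 ratio of lung over reference of Tnc, Fn1, Thbs1, Postn, Loxl1, Loxl2 and Tgfb1 on each array, by dose in µg, with vehicle in grey, NRCWE-025 in blue and NRCWE-030 in orange, day 1 left and day 28 right; black marks are the mean ± SD of the 4 or 5 mice. Of these panels only Fn1 at 162 µg of NRCWE-025 on day 28 and Postn at 54 µg of both materials on day 1 show treated mice that do not overlap the vehicle mice of the same day.

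Between the materials, none of the 9 genes was called by the F-test over the 3 doses on either day, where 0.155% of all genes were called on day 1 and 0.241% on day 28. The smallest adjusted p was 0.226, that of Thbs1 on day 1, and 0.424, that of Spp1 on day 28, and 2 and 1 of the 9 had an unadjusted p under 0.05, as did 7.78% and 6.29% of all genes. Between the days, none of the 9 was called for the difference at 162 µg, where 0.059% of all genes were called for NRCWE-025 and 0.198% for NRCWE-030, and 4 of the 9 had an unadjusted p under 0.05 for each material, as did 10.5% and 7.67% of all genes. The difference at 162 µg was higher on day 1 than on day 28 for 8 of the 9 genes after NRCWE-025 (median 0.32) and for 7 of the 9 after NRCWE-030 (median 0.31), while the medians of all genes were 0.0018 and 0.0049. The exception for both materials was Spp1, at -0.66 and -1.38, and for NRCWE-030 also Tgfb1, at -0.0037. The 2 materials share their vehicle arrays in this difference. In vehicle lungs, 7 of the 9 genes stood higher on day 28 than on day 1, with a median of 0.12 against -0.0076 for all genes. A higher vehicle level on day 28 raises this difference for both materials at once. On day 1, 8 of the 9 genes lay above vehicle at 162 µg for each material, with medians of 0.15 and 0.18, and Eln was the one below. On day 28, 7 of 9 lay below vehicle after NRCWE-025 and 6 of 9 after NRCWE-030, with medians of -0.18 and -0.17. No gene of the 9 was without overlap at 162 µg on day 1, where 2.09% of all genes did not overlap for NRCWE-025 and 4.55% for NRCWE-030. Vehicle lungs of day 28 and day 1 differed for none of the 9 by the test, against 0.0375% of all genes, and 1 of the 9, Postn, had an unadjusted p under 0.05, as did 8.51% of all genes.

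The genes around these 9 were taken from lists of other matricellular genes, other elastic fibre genes, receptors of these proteins and the pathway of transforming growth factor beta. On day 28 no gene of the 4 lists was called in any comparison of a dose with vehicle, and 2 of 22, 2 of 18, 5 of 13 and 2 of 18 had an unadjusted p under 0.05 at 162 µg of NRCWE-030, as did 7.51% of all genes. At this dose 12 of 18 other elastic fibre genes lay below vehicle (median -0.08), and the lowest was Fbln2, a fibulin, at -0.39 with an adjusted p of 0.528. Fibrillin-1 (Fbn1), the main protein of the microfibril scaffold, differed by -0.16, and Mfap4, a microfibril-associated protein, by 0.02. Of the other matricellular genes 12 of 22 lay below vehicle (median -0.03). The receptors lay above it in 9 of 13 (median 0.06) and the pathway genes in 9 of 18 (median 0.0024). On these arrays 15 of the 22 other matricellular genes and 14 of the 18 other elastic fibre genes were well above background on every array, and Fbln5 on 2 only.

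On day 1 the lists held called genes for NRCWE-030 and not for NRCWE-025. At 162 µg of NRCWE-030 1 of 22 other matricellular genes and 2 of 18 elastic fibre genes rose, 1 of 18 pathway genes fell, and none of 13 receptors was called, 3 of them having an unadjusted p under 0.05, as did 12.9% of all genes. The share of all genes called in this comparison was 1.69%. Tgfbi, a matricellular protein named for its response to transforming growth factor beta, rose by 1.16 log2 units (SE 0.22, adjusted p = 0.00917), from 3.20 ± 0.36 in vehicle to 4.37 ± 0.28. Efemp2 (fibulin-4), which brings lysyl oxidase to elastin, rose by 0.91 (SE 0.15, adjusted p = 0.00391), from -1.26 ± 0.29 to -0.35 ± 0.19. On day 28 its difference was 0.11, and the change between the days of 0.80 was called with an adjusted p of 0.0493. That call held in 25 of 69 fits with 1 array left out, with differences of 0.70 to 0.87 and adjusted p-values of 0.0276 to 0.174, and in 8 of 13 other ways of processing, with an adjusted p of up to 0.339. Emilin2, an elastin interface protein, rose by 0.84 (SE 0.21, adjusted p = 0.0461). For NRCWE-025 at the same dose the means of these 3 genes were 3.84 ± 0.55, -0.56 ± 0.32 and -0.53 ± 0.58, and none was called. The direct differences between the materials at this dose were 0.53, 0.21 and 0.44, with adjusted p-values of 0.81, 0.862 and 0.825.

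Tgfbr3 (betaglycan), a co-receptor of transforming growth factor beta, fell by 0.37 at 162 µg of NRCWE-030 on day 1 (SE 0.08, adjusted p = 0.0231), from 0.16 ± 0.17 to -0.21 ± 0.09. Ccn1 (CYR61), an immediate early matricellular protein, passed the F-test for dose on day 1 (adjusted p = 0.0296) with its highest mean at 18 µg, -0.56 ± 0.16, against -1.59 ± 0.28 in vehicle, -1.68 ± 0.29 at 54 µg and -1.42 ± 0.60 at 162 µg. With each array left out in turn, the calls of Tgfbi and Efemp2 at 162 µg held in 20 of 20 fits, and each was lost in 2 of 13 other ways of processing, with an adjusted p of up to 0.0977 for Tgfbi and 0.133 for Efemp2. In the same 13 the call of Tgfbr3 held in 9 (adjusted p of up to 0.155), that of Ccn1 in 8 (up to 0.247) and that of Emilin2 in 6 (up to 0.278). With an array left out, the call of Tgfbr3 was lost without vehicle replicate 1 or 5 or 162 µg replicate 1, 2 or 4 (adjusted p of up to 0.0714). That of Ccn1 was lost without 18 µg replicate 1, 2, 4 or 5 or 162 µg replicate 1 or 3 (up to 0.0806). That of Emilin2 held in 8 fits and was lost without vehicle replicate 1, 3 or 4, 18 µg replicate 1 or 4, 54 µg replicate 1, 2 or 4, or 162 µg replicate 1, 2, 3 or 5 (up to 0.113). Neutrophil markers were 5 of 8 above vehicle in this group, with 2 called, Lcn2 at 3.07 and Csf3r at 1.25, and of the macrophage markers Msr1 was called at 0.98. Their part in these changes was not tested.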

How the data were processed

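The arrays were Agilent whole mouse genome slides, scanned and read by the authors with Agilent Feature Extraction, whose deposited files hold for each spot linear intensity values of the Cy5 and Cy3 channels and of the local background, a log10 ratio of Cy5 over Cy3, and quality flags. The authors also deposited a table of log2 ratios after LOWESS within each array, which was used as an alternative. Here, the median spot signals were background corrected (normexp, offset 50, with local backgrounds marked as outliers replaced by the array's median) and normalized by loess within each array in limma 3.58.1 under R 4.3.3. Of 45018 spots, 43379 were no controls. They form 41174 probes, of which 27479 (66.7%) had a RefSeq symbol from the GRCm38.p6 tables. A gene is the median over its probes, and 18656 of 18749 genes had a value on all 69 arrays and were tested. Each material and day was fitted with its vehicle group (moderated F over doses, then single doses), and differences between materials, days and vehicle groups came from 1 fit of all groups. P-values were adjusted by Benjamini-Hochberg over all genes, and 0 of the arrays were duplicates. The number of arrays limits the precision. The fit was tested on simulated data. Each replicate is 1 mouse, numbered here in accession order. Within-slide differences used slides that held a vehicle array. Motif letters were counted in the RefSeq promoters. The alternatives were other background corrections, scalings, sources of the ratios, probe summaries, filters, slide and scan day terms, an ordinary test, other sets of samples in a fit, and each array left out. The text names the 10 genes, genes of the other lists called in any test (1 pathway gene is not reported here), and the 3 genes most like Eln; others are said to have been chosen after their values were seen, or are given beside a list. The genes and lists were chosen with earlier results of these data known.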

Additional observations from a re-analysis of the deposited data

Results flagged for a closer look

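In 7 of the 126 sets of arrays tested, 1 gene in 1 group, a single mouse stood apart from the others of its group by more than Dixon's 95% limit, and chance flags about 1 in 20 such sets. Spp1 read -4.15 in vehicle replicate 3 of day 28, with the other 4 between -5.22 and -4.92, and -5.46 in replicate 2 at 18 µg of NRCWE-030 on day 1, with the others between -4.38 and -4.14. Tnc read -0.63 in replicate 1 at 18 µg of NRCWE-025 on day 1 (others -1.15 to -1.04), -1.32 in replicate 2 at 54 µg of NRCWE-030 on day 28 (others -0.99 to -0.89) and -0.67 in replicate 5 at 54 µg of NRCWE-025 on day 28 (others -1.19 to -1.06). Loxl2 read -0.76 in replicate 5 at 18 µg of NRCWE-030 on day 28 (others -0.99 to -0.92) and -1.23 in replicate 2 at 162 µg of NRCWE-025 on day 28 (others -0.91 to -0.87). The former array had the lowest correlation of all with its own column of deposited log2 ratios, 0.926 against a median of 0.995. The other arrays of its slide were of day 1. Whether its scanner file matches its label was not tested, and it was kept in the values given for its group. Over the 9 genes, 90 differences between materials or between days were tested with limma, and 0 were called.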

How the results depend on the processing

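The number of the 9 genes called stayed at its value in 632 of 672 recomputed counts. Most of these were counts of 0, which can only be kept or raised. The counts that were not 0, those for NRCWE-030 on day 28 across doses and at 162 µg, were each kept in 5 of the 13 other ways of processing. For NRCWE-030 on day 28, the count of 1, which is Eln, became 0 both across doses and at 162 µg with local backgrounds as deposited, no background correction, the scanner's log ratio, the deposited table of log2 ratios, scaling between arrays, the slide as a fixed term, the scan day as a fixed term and the ordinary test. Both counts ran from 0 to 1 when single arrays were left out, with Eln called in 6 of 20 fits across doses and 13 of 20 at 162 µg. Each count stayed 1 when all 14 groups were fitted together, but the gene was then Spp1. The count for NRCWE-030 on day 1 became 1 (Eln), both across doses and at 162 µg, with the slide as a fixed term. The count between the days for NRCWE-025 became 2 (Fn1 at 0.86 with an adjusted p of 0.0325 and Tnc at 0.50 with 0.0448) with the scan day as a fixed term. The causes were not tested. Of 1545 recomputed values of single genes, 157 lost and 12 gained their side of the threshold, and no difference changed direction. Mice could not be paired by replicate number, because these numbers were given in accession order and do not tie mice across groups. Slides do tie arrays of different groups, and the slide was used as a block instead. Dim probes limit Tnc, Thbs1 and Fbln5, and a dim reference signal limits Eln.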
